A study of Mus musculus with 18 samples.

Results

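The hotspots described here are sites of meiotic DNA breaks that were mapped in sterile hybrid mice and had no counterpart in either parental map. They were taken from the 23554 autosomal DMC1 hotspots of the infertile F1 map. A hotspot was kept when 0.1 to 0.9 of its DMC1 reads came from the B6 chromosome, which is called a symmetric share below. It also had to have no hotspot centre of the PWD/PWD or B6/B6 map within 1000 bp. In addition, its 1 kb bin of the infertile H3K4me3 table could not carry the authors' mark for a peak likely to be PRDM9-independent. These limits left 576 hotspots, 2.45% of the map, which held 0.460% of its summed DMC1 heat. Heat is the authors' relative DMC1 signal of a hotspot, and its definition is not given in the sources used here. These hotspots were thus chosen by their measured DMC1 share, their absence from the homozygous maps and the absence of the mark, and these values are given as a description.

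PRDM9 is a histone methyltransferase of meiotic cells whose zinc-finger array binds short DNA motifs and places H3K4me3 beside them. The enzyme SPO11 then cuts DNA at many of these sites, and the strand-exchange protein DMC1 coats the single-stranded ends. The zinc fingers differ between Prdm9 alleles, so alleles direct breaks to different sites. Where a motif is intact on only 1 of the 2 parental chromosomes, binding, the histone mark and DMC1 come mainly from that chromosome. H3K4me3 also lies at active promoters, where it does not depend on PRDM9.

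DMC1 ChIP-seq of single-stranded DNA came from testes of males about 10 weeks old, with 1 library per map, and H3K4me3 ChIP-seq from whole adult testis. The infertile F1 males were (PWDxB6)F1 with the Prdm9 genotype PWD/B6, and the reciprocal F1 males were (B6xPWD)F1 with the same pair of alleles. The rescue F1 males were (PWDxB6)F1 littermates of the infertile males with the genotype PWD/Humanized, where the humanized allele encodes a human zinc-finger array. The Hum/PWD F1 males were (B6xPWD)F1 with the genotype Humanized/PWD. The further DMC1 maps came from (B6xCAST)F1 males with the genotype B6/CAST, from C57BL/6J males with the genotypes Humanized/Humanized (Hum/Hum) and B6/Humanized (B6/Hum), and from PWD/PhJ males (PWD/PWD). For the B6/B6 map the submitters used a DMC1 library of another group, and its age is not given here. The 3 F1 tables of H3K4me3 held 2 biological replicates and 1 input library each. Whole testis holds many cell types besides meiotic cells, so the H3K4me3 counts are not those of meiotic cells alone. Fewer cells with a mark and less of the mark per cell cannot be told apart.

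Of the 12065 hotspots of the infertile map with a symmetric share, 1995 matched neither homozygous map. The authors' mark was present at 1419 of these, or 71.1%, and absent at the 576. The comparison classes were these 1419 marked hotspots, 5073 unmarked symmetric hotspots that matched only the PWD/PWD map (PWD-type), 3606 that matched only the B6/B6 map (B6-type), and 4049 unmarked hotspots of neither map with a share outside the limits. The last are called biased below. No test between these classes was made, because hotspots of 1 library are not replicates. The absence of the mark says only that no such peak overlapped the bin. At 241 of the 576 hotspots, H3K4me3 was not called at an adjusted p under 0.05 of the likelihood ratio test described below. The working name of PRDM9-type marking is therefore not used for them.

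Matches to the binding preferences of PRDM9 are shown first, because the hotspots had been chosen for not matching either parental map. A matrix of 24 positions was learned from the 1000 hottest hotspots found only in the PWD/PWD map, and another from those found only in the B6/B6 map. Written with the letters that reached a frequency of 0.6, and N elsewhere, the PWD matrix read NGNNANANNNCNAGNCANNNNNNN and the B6 matrix NNNNNNGNNGNTNCTNCCNNNNNN. Both strands of the central 300 bp were scored against the C57BL/6J reference, and a match was a score above the limit that 5% of windows beside the hotspots pass. The 5 sequences that follow are from among the hottest of the 576 hotspots with a match above the limit passed by only 1% of such windows, outside exons, 2 for the PWD and 3 for the B6 matrix. Capitals mark the matched 24 bases, and each sequence is written 5′ to 3′ on the strand of the match from the RefSeq GRCm38.p6 assembly, which is mm10.
Gm8116, PWD match, chr9:78869233-78869332, plus strand: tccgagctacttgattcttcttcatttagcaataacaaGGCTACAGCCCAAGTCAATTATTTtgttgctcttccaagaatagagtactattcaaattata
Gm34263, PWD match, chr9:14648139-14648238, plus strand: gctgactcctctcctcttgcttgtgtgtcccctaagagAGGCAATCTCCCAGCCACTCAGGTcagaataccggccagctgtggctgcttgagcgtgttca
Pea15b, B6 match, chr5:77581262-77581361, plus strand: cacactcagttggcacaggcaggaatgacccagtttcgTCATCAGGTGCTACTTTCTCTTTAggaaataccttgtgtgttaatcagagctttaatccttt
Casp12, B6 match, chr9:5474233-5474332, minus strand: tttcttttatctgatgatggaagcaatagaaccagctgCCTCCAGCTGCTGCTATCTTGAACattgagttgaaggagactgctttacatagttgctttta
Gm24073, B6 match, chr14:114976623-114976722, plus strand: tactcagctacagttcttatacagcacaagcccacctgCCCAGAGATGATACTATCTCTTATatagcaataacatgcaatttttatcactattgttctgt

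The hotspots are named by the gene that holds them or the nearest gene. These 5 are intergenic. The 2 with a PWD match had B6 shares of DMC1 of 0.818 (Gm8116) and 0.84 (Gm34263). The 3 with a B6 match had shares of 0.116 (Pea15b), 0.1 (Casp12) and 0.152 (Gm24073). All 5 were also hotspots of the reciprocal map. Where the PWD motif was matched, breaks at these 5 thus lay mainly on the B6 chromosome. They lay mainly on the PWD chromosome where the B6 motif was matched. Leaving out hotspots near a homozygous centre favours this direction. The sequences are those of the B6 strain, and the PWD sequence was not used here. At the Pea15b hotspot, H3K4me3 was also mostly on the PWD chromosome, with a B6 share of 0.0723. Its bin held 40 and 40 ChIP fragments in the 2 infertile replicates against 23 input fragments.

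The same pattern held across the set. The PWD matrix matched 77 of the 576 hotspots, 13.4% (95% Wilson interval 10.8 to 16.4%), and the B6 matrix 81, or 14.1% (11.5 to 17.1%). Windows beside the same hotspots matched at 4.60% and 4.43%. Over all autosomal hotspots of the infertile map, without those used to learn the matrices, the matched shares were 21.6% and 23.0%. PWD-type hotspots matched the PWD matrix at 37.5%, and B6-type hotspots matched the B6 matrix at 56.7%. Biased hotspots matched the PWD and B6 matrices at 25.2% and 20.4%, and marked ones at 4.86% and 8.25%. The 576 therefore held fewer matches than biased hotspots and than parental types to their own matrix. They held more than marked hotspots and than their own surroundings. Parental types come from the maps that gave the matrices, which favours matches there. A match is a description of letters, and 421 hotspots matched neither matrix in this window.

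Which matrix matched went with the chromosome that was cut. The 74 hotspots with only a PWD match had a median B6 share of DMC1 of 0.836, and 63 of them were above 0.5. The 78 with only a B6 match had a median of 0.153, and 60 of them were below 0.5. H3K4me3, which the selection by share did not use, gave medians of 0.844 over 30 bins and 0.144 over 36 bins. The selection had left out hotspots near a PWD/PWD or B6/B6 centre. It thus favoured sites that an allele does not use on the chromosome of its own strain. This direction, in DMC1 and in H3K4me3, was therefore largely set beforehand. The authors' own column for the Prdm9 allele of each hotspot called 131 of the 576 PWD, 151 B6 and 294 undetermined. Hotspots called PWD matched the PWD matrix at 32.8% and the B6 matrix at 0.763%, and those called B6 matched at 0.662% and 27.8%. What that column rests on is not stated in the labels or headers, so it may have used the same letters. The undetermined hotspots matched at 11.2% and 12.9%, and their median B6 share was 0.655. Most were away from that median, with 91 below 0.3, 137 above 0.7 and 66 from 0.3 to 0.7.

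The shares that made these hotspots symmetric lay mostly near the limits. The B6 share was below 0.3 at 233 (40.5%) and above 0.7 at 253 (43.9%), which left 90 (15.6%) from 0.3 to 0.7. The middle range held 64.6% of PWD-type, 63.5% of B6-type and 72.9% of marked hotspots. Directly at the lower limit, 72 of the 576 had shares of 0.1 to 0.12, and 93 unmarked hotspots of neither map lay just outside at 0.08 to below 0.1. At the upper limit, 78 had 0.88 to 0.9, and 110 lay just outside at above 0.9 to 0.92. The selection therefore cut through 2 dense groups of hotspots instead of isolating a separate group. Nearest to a limit of share were hotspots near Gm19028 and in Macrod2 at 0.1 and in Nceh1 and near Igsf3 at 0.9. Just outside were D630002J18Rik at 0.099, Gm5178 at 0.098, and Ccdc60 and Slc25a46 at 0.902.

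**Figure D1:**
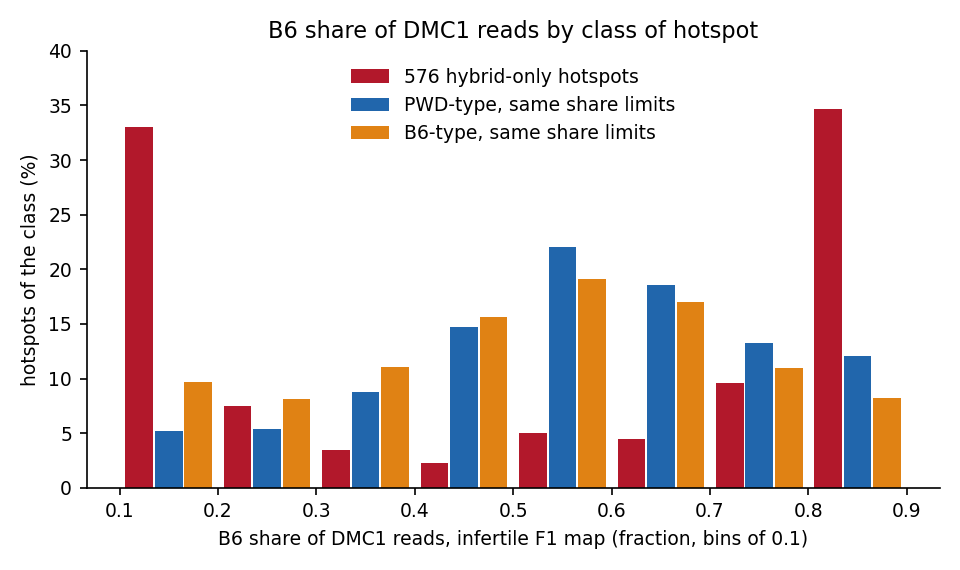
Percentage of hotspots of each class (vertical axis) by B6 share of DMC1 reads in the infertile F1 map (horizontal axis, bins of 0.1). The hybrid-only hotspots (red) are concentrated in the outer bins, with 33.0% at 0.1 to 0.2 and 34.7% at 0.8 to 0.9, whereas PWD-type (blue) and B6-type (orange) hotspots peak in the middle.

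Readouts that the selection had not used gave a more biased picture for many of them. In the reciprocal map, 175 of the hotspots had a B6 share of DMC1, and it was symmetric at 61, or 34.9% (28.2 to 42.2%). The remaining 114 lay below 0.1 (72) or above 0.9 (42), each on the same side of 0.5 as in the infertile map. By the same measure, 91.9% of PWD-type, 93.5% of B6-type and 2.22% of biased hotspots were symmetric. Most of the hotspots that recurred thus had a share in the reciprocal map beyond the limits that had selected them. All 114 had infertile shares near those limits, 72 of 105 below 0.3 and 42 of 64 above 0.7. The 6 with middle infertile shares were all symmetric in the reciprocal map. Parental types had mostly middle shares, so the classes were not matched for infertile share. The part of this in the difference was not tested. The number of reads behind each DMC1 share was not used here, so its precision is unknown.

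H3K4me3 in the infertile males was read the same way in the 262 bins with at least 10 informative reads. The B6 share of H3K4me3 was symmetric at 157 of them, 59.9% (53.9 to 65.7%), below 0.1 at 67 and above 0.9 at 38. Of the 105 biased bins, 101 leaned to the same chromosome as DMC1. In PWD-type and B6-type hotspots 95.6% and 94.6% of bins were symmetric, and in biased hotspots 11.9%. The 576 lay between these classes, which were not matched for the infertile DMC1 share. With at least 20 informative reads the symmetric part was 76.3% of 152 bins.

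**Figure D2:**
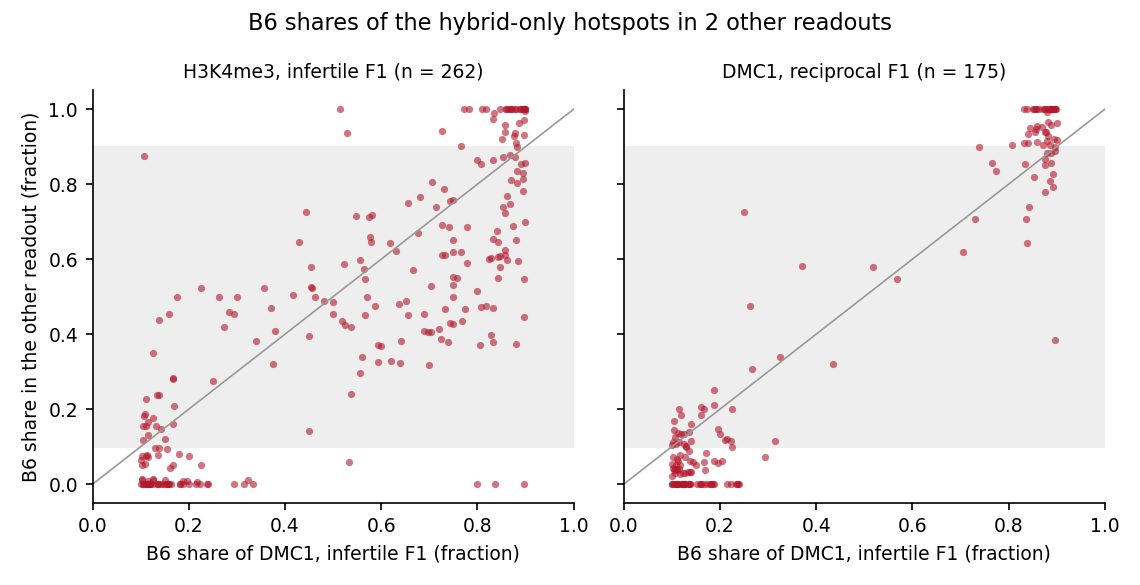
B6 share in 2 other readouts (vertical axes, fraction) against the B6 share of DMC1 in the infertile F1 map (horizontal axes, fraction), each point 1 hybrid-only hotspot, with the symmetric range 0.1 to 0.9 shaded and the line of equal shares. Left, H3K4me3 of the infertile F1 (262 bins); right, DMC1 of the reciprocal F1 (175 hotspots), where 114 points lie outside the shaded range and all of these are on the side of their infertile share.

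Whether the hotspots carried H3K4me3 was asked next. The deposited p-value, from a likelihood ratio test against no enrichment, was adjusted by the Benjamini-Hochberg method over all 23553 autosomal bins with a p-value. H3K4me3 was called at an adjusted p under 0.05 in 335 of the 576 bins, 58.2% (54.1 to 62.1%), against 83.1% of all bins. Calls were made in 99.5% of marked, 78.8% of PWD-type, 82.1% of B6-type and 84.0% of biased bins. The hotspots chosen here therefore had H3K4me3 calls less often than the map as a whole, and a majority had one. The mark itself was part of the selection, so strong promoter-like peaks had been removed beforehand.

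Over the whole set, not matched for heat, the level of the histone mark was low. The authors' enrichment, the ratio of H3K4me3 signal to coverage expected from local background, never below 0, had a median of 0.317, against 0.717 in PWD-type, 0.798 in B6-type and 24.3 in marked bins. It was 0 in 66 bins and above 3 in only 11. The bins held medians of 14 and 17 ChIP fragments in infertile replicates 1 and 2, against 26 in the input. Summed over the 576 bins, ChIP fragments per input fragment came to 0.887 and 1.02 in the 2 replicates. These were 0.705 and 0.746 times the values over all unmarked bins. Both replicates were thus low to a like degree, and log2 counts of the 2 replicates had a Pearson correlation of 0.896 across the 576 bins, which share libraries and are not independent.

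The hotspots were also weak in DMC1. The heat of the 576 ranged from 4.00 to 163 with a median of 9.10, against 25.4 over all hotspots, and 331 of them (57.5%) were below 10. Below a heat of 10, H3K4me3 was called in 54.1% (48.7 to 59.4%) of them, 46.9% of PWD-type, 49.6% of B6-type and 47.8% of biased bins. From 10 to 25 the values were 60.6% (54.0 to 66.9%), 71.0%, 76.5% and 63.5%. From 25 to 60 H3K4me3 was called in 20 of 23 (87.0%), against 92.6% of all hotspots, and at 60 and over in 5 of 6 (83.3%), against 99.5%. Over all infertile hotspots, marked ones included, calls were made in 58.8% below 10 and 76.5% from 10 to 25, above the values of the 576, though 58.8% is inside their counting interval. In the weakest class the 576 were above the 3 other unmarked classes, though the B6-type value is inside their counting interval. In the next they were below them, though the value of the biased hotspots is inside their interval. Median enrichment below a heat of 10 was 0.281, against 0.222 in PWD-type, 0.243 in B6-type and 0.222 in biased bins. From 10 to 25 it was 0.323, against 0.434, 0.498 and 0.324. In the coldest class the enrichment of the 576 was thus not lower than in the other unmarked classes. Heat and enrichment followed each other less within the 576 (Spearman 0.154) than over all 19760 unmarked bins (0.765), which span a wider range of heat.

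**Figure D3:**
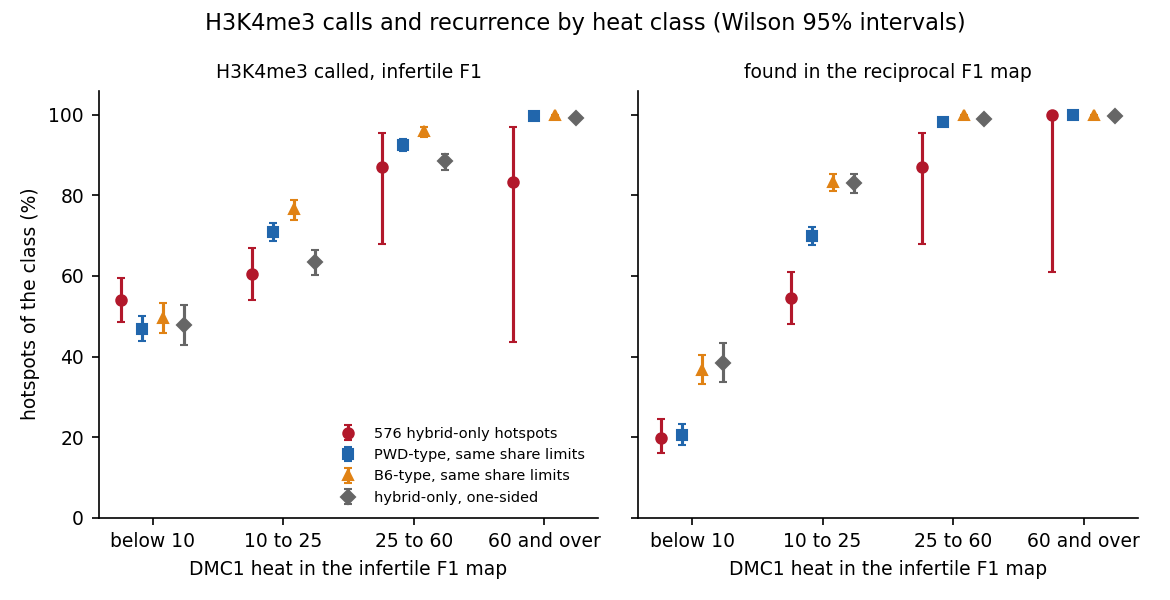
Percentage of hotspots with H3K4me3 called in the infertile F1 (left) and found in the reciprocal F1 map (right) by class of DMC1 heat, with 95% Wilson intervals that cover counting only. Below a heat of 10 the hybrid-only hotspots (red circles) lie at 54.1% and 19.9%. From 10 to 25 they lie at 60.6% and 54.6%, below the PWD-type (blue), B6-type (orange) and biased hotspots (grey, one-sided in the legend). For H3K4me3 calls in that class, the biased value of 63.5% is inside the interval of the hybrid-only hotspots.

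The 90 hotspots with middle shares had other values than those nearer the limits. H3K4me3 was called in 76.7% (66.9 to 84.2%) of them, against 53.2% of those with shares below 0.3 and 56.1% of those above 0.7. Their median enrichment was 1.12, against 0.264 and 0.305. The B6 share of H3K4me3 was symmetric in 55 of 61 bins with enough reads, so both chromosomes carried the mark. Only 9 of the 90 (10.0%, 5.35 to 17.9%) were found in the reciprocal map, against 52.4% and 31.2%. The authors left the allele undetermined at 66 of them. Of the 11 hotspots of the 576 whose bin lay within 1000 bp of a protein-coding transcript start, 6 were among these 90. Their motif matches were also fewer, with 17.8% matching either matrix, against 28.3% and 28.9%. These bands of share were drawn on values the selection had used, and the differences were not tested.

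The hottest hotspots included several at the edge of the match distance. The hottest of all, in an intron of Plekha5 (a pleckstrin homology domain protein; centre chr6:140590475), had a heat of 163.0, a B6 share of 0.567 and an H3K4me3 enrichment of 8.74. Its bin held 326 and 318 ChIP fragments in the 2 replicates against 36 in the input. A B6/B6 centre lay 1046 bp away, just beyond the limit, and another infertile hotspot 618 bp away. The reciprocal map had a hotspot 813 bp from it, with a heat of 298.6 and a share of 0.547, and the B6 by CAST map had one 611 bp from it, with 267.3 and 0.502. These distances are of the size of that to the neighbouring hotspot, so the centres in the other maps cannot be assigned to this hotspot alone. Of those 10, 5 lay within 2000 bp of a homozygous centre, against 40 of all 576 (6.94%).

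The other 4 of these 5 were near Lbx1, in Pcsk5 and Pccb, and near Gm8824. The hotspot 24081 bp from Lbx1 (a homeobox gene; chr19:45259893) had a heat of 114.8, a DMC1 share of 0.324 and an H3K4me3 share of 0.0114, and a B6/B6 centre lay 1481 bp away. Those in introns of Pcsk5, a proprotein convertase (chr19:17436435, heat 89.4), and Pccb, a subunit of propionyl-CoA carboxylase (chr9:101032462, heat 86.2), lay 1741 and 1720 bp from B6/B6 centres. Both had PWD as the authors' allele and shares of 0.876 and 0.835. They recurred in the reciprocal, rescue and Hum/PWD maps, all of which have a PWD allele. In the reciprocal map the B6 shares were 0.867 and 0.855, close to the infertile ones. In the rescue and Hum/PWD maps the B6 share was 0.98 and 0.98 at Pcsk5 and 0.957 and 1.0 at Pccb. Their H3K4me3 shares were 0.929 and 0.991, so H3K4me3 and the DMC1 of the rescue and Hum/PWD maps came mostly from the B6 chromosome. The hotspot near Gm8824 (chr16:50124518, heat 59.8) leaned the other way, with a DMC1 share of 0.161 and an H3K4me3 share of 0.0420. Other infertile hotspots lay 1792 bp from that of Pcsk5, 1771 bp from that of Pccb and 1532 bp from that near Gm8824. The part of these neighbours in the shares was not tested.

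Of the remaining 5 hottest, 2 leaned to the PWD chromosome in both readouts and 2 had no H3K4me3 call. Those near Gm48533 (chr13:110814311, heat 73.9) and in a UTR of Sbp, which encodes spermine-binding protein (chr17:23945589, heat 58.9), had DMC1 shares of 0.13 and 0.196 and H3K4me3 shares of 0.0961 and 0.00938. The hotspot near Gm8116 (chr9:78869389, heat 42.7), shown above with its PWD match, had no informative H3K4me3 reads. Near Gm49198 (chr15:50490788, heat 68.6, share 0.37), 3 and 6 ChIP fragments stood against 21 in the input. This hotspot recurred in the reciprocal map at a heat of 49.5 and a share of 0.583 although its enrichment was 0 in the infertile table. Near Gm48807 (chr12:105882104, heat 46.2, share 0.133), 8 and 13 fragments stood against 57, and no other map held it.

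Hotspots without an H3K4me3 call were not confined to the coldest. After those near Gm49198 and Gm48807, the hottest were in introns of March6, a ubiquitin ligase (chr15:31506774, heat 42.6), Kif15, a kinesin (chr9:123014056, heat 25.2), and Rnf32 (chr5:29201943, heat 24.7). March6 and Rnf32 were in none of the 6 other maps, and the nearest PWD/PWD centre lay 1282 bp from March6. The 5 hottest hotspots in no other map were Gm48807, March6, Nrip1, Rnf32 and Gm12354. Those in an intron of Nrip1, a nuclear receptor corepressor (chr16:76365938, heat 26.8), and near Gm12354 (chr4:19724752, heat 22.3) did carry H3K4me3, with enrichments of 2.48 and 1.73. Their H3K4me3 shares were 0.453 and 0.597, from both chromosomes. Absence from the other maps thus occurred with the mark and without it.

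The strongest H3K4me3 was found at hotspots of unlike heat. The highest enrichment, 10.3, was in an intron of Dnah11, an axonemal dynein heavy chain (chr12:117987996, heat 36.1), with 116 and 115 fragments against 11 in the input. Its DMC1 share was 0.897 and its H3K4me3 share 0.447, so DMC1 leaned to B6 and the histone mark to neither chromosome. Enpp6, a choline phosphodiesterase (chr8:47003166, heat 12.2), reached the same enrichment of 10.3, with 188 and 190 fragments against 18. The hotspots near Zbtb10 (chr3:9302618) and Gm22740 (chr5:113051180) had 5.43 and 5.08 at heats of 8.3 and 21. No other map held those at Enpp6, Zbtb10 or Gm22740. All 11 bins with an enrichment above 3 had symmetric H3K4me3 shares, 6 of the 11 had middle DMC1 shares, and 4 were found in the reciprocal map. The letters around the centres at Dnah11 and Plekha5 are given because these were the most enriched hotspots in which neither matrix matched in the central 300 bp.
Dnah11, no match, chr12:117987946-117988045, plus strand: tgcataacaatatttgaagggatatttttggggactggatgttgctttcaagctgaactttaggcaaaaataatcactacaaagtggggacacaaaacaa
Plekha5, no match, chr6:140590425-140590524, plus strand: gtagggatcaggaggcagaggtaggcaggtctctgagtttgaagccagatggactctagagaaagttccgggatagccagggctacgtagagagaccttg

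Recurrence in the 6 other maps was the second question. The reciprocal map, from males with the same alleles, held 210 of the 576 within 1000 bp, 36.5% (32.6 to 40.5%), against 72.3% of all infertile hotspots and 3.10% of the marked ones. The B6 by CAST map held 62 (10.8%), the Hum/PWD map 33 (5.73%), the rescue map 10 (1.74%), the Hum/Hum map 10 (1.74%) and the B6/Hum map 9 (1.56%). Over all infertile hotspots these shares were 25.1, 32.9, 22.0, 1.95 and 18.3%. Recurrence was thus below that of the map as a whole in 5 of the 6 maps. In the Hum/Hum map, which has neither allele of the infertile males, the whole-map value was within the counting interval. The low value in the B6/Hum map was largely set by the selection, which left out hotspots near a B6/B6 centre. Biased hotspots, chosen with the same limit of distance, reached 1.04% there. In the reciprocal, B6 by CAST, Hum/PWD and rescue maps they reached 90.0, 33.2, 38.6 and 27.6%, above the 576. Their median heat was 50.2, against 9.10 in the 576, and heat was not matched in these shares. Centres in the Hum/Hum map were also farther away, at a median of 540 bp against 91.5 bp in the reciprocal map. No other map held 329 of the hotspots (57.1%).

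Recurrence followed heat closely. The reciprocal map held 19.9% of those with a heat below 10, 54.6% from 10 to 25, 20 of 23 (87.0%) from 25 to 60, and all 6 above. Over all infertile hotspots the shares were 20.9, 62.5, 97.2 and 99.9%, so in the coldest class the 576 were within the counting interval of the whole map. PWD-type hotspots had 20.6% and 69.9% in the first 2 classes, B6-type 36.7% and 83.4%, and biased ones 38.4% and 83.1%. Heat in the 2 maps was related over the 210 (Spearman 0.655, a description over hotspots that share both libraries). The authors' allele was the same in both maps at 69 of the hotspots called B6 and 38 of those called PWD, and it was opposite at 2. With 1 library per map, no spread between animals is known.

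**Figure D4:**
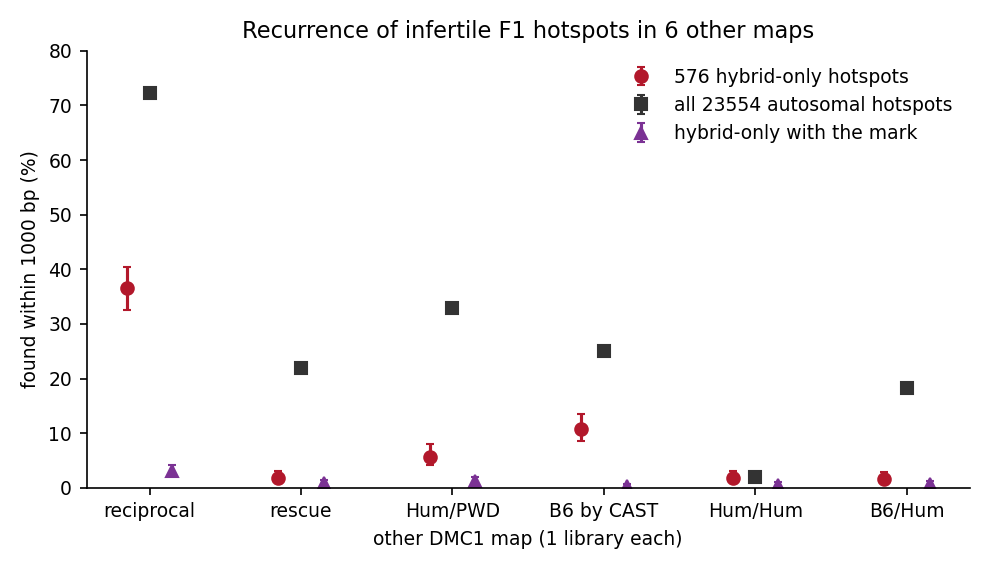
Percentage of hotspots with a centre within 1000 bp (vertical axis) in each of 6 other DMC1 maps (horizontal axis), with 95% Wilson intervals that cover counting only. The 576 hybrid-only hotspots (red circles) reach 36.5% in the reciprocal map and at most 10.8% elsewhere; all autosomal hotspots of the infertile map (black squares) and the marked hybrid-only hotspots (purple triangles) are shown beside them.

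Recurrence was also counted by the authors' allele. Among those that the authors called PWD, 15 of 131 (11.5%) were in the Hum/PWD map, against 4 of 151 (2.65%) of those called B6 and 14 of 294 (4.76%) of the undetermined. The B6 by CAST map, which has a B6 and no PWD allele, held 16%, 11.3% and 8.16% in the same order, so the share was highest for those called PWD in both maps. These differences were not tested. In the Hum/PWD map 28 of the hotspots had a B6 share, with a median of 0.923.

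Of the 5 hotspots found in 4 or more other maps, 4 that were singled out after their values were seen lay in introns of Gm12766, Dpp3, Cyb5r3 and Synpo2. All 4 were in the rescue, Hum/PWD, Hum/Hum and B6/Hum maps, the 4 maps with a humanized allele. Heat in the infertile map was 16.3, 8.70, 6.80 and 5.40, against 153, 93.4, 193 and 121 in the Hum/Hum map. The matching centres of the Hum/Hum map lay 526, 415, 829 and 347 bp away. Heat is given side by side only, because its scale may differ between maps. Their H3K4me3 enrichments in the infertile males were 0.185, 0.142, 0.0577 and 0.436. Neither motif matrix matched at these 4.

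H3K4me3 of the recurring hotspots was then compared between crosses. Of the 210 hotspots, 23 (11%, 7.41 to 15.9%) were called in the reciprocal table, against 44.1% of all its bins. The infertile table called 123 of the same 210. Their median enrichment was 0.0254 in the reciprocal and 0.308 in the infertile table. It was also lower in the reciprocal table at PWD-type (0.308 against 0.974) and B6-type hotspots (0.373 against 0.973). Of the 10 hotspots found in the rescue map, 7 were called in its table, against 87.9% of all bins. Each table has its own depth, so these shares and medians do not compare the level of the mark between crosses.

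Counts were therefore tested in 1 model. Bins of the infertile and reciprocal tables whose centres lay within 250 bp of each other were fitted with edgeR's quasi-likelihood test, 2 replicates against 2, over 15643 bins. Of the 576, 184 could be matched and 174 passed the filter on low counts. At a Benjamini-Hochberg adjusted p under 0.05, 51 of the 174 fell in ChIP count in the infertile F1, against 10.7% of all bins. In the other direction 2 rose, against 11.2%. The model did not use the input, and the median enrichments given above had the opposite direction. DESeq2 gave an adjusted p to only 1 of the hotspots, which rose, so it called 0 falls, and at an unadjusted p under 0.05 it had 29 falls and 2 rises. The median log2 difference, infertile minus reciprocal, was -0.63 over the 174 and -0.02 over all bins. Scaled to marked bins instead, 37 of the hotspots fell, and over all bins 2528 rose and 1122 fell, against 1755 and 1667. Of the 115 tested hotspots with an infertile enrichment below 0.5, 49 (42.6%) fell. Of the 3618 bins of any class in that range, 1203 (33.3%) fell, with a median of -0.71. With an enrichment of 2 or more, 31.2% of all bins rose. Both ranges were drawn on the infertile counts that also enter the difference, which favours falls in the low and rises in the high range. The part of this in the lower counts of the 51 was not tested. Leaving out 1 library gave from 13 to 40 falls, with 13 without reciprocal replicate 2, 24 without infertile replicate 1 and 27 without reciprocal replicate 1.

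**Figure D5:**
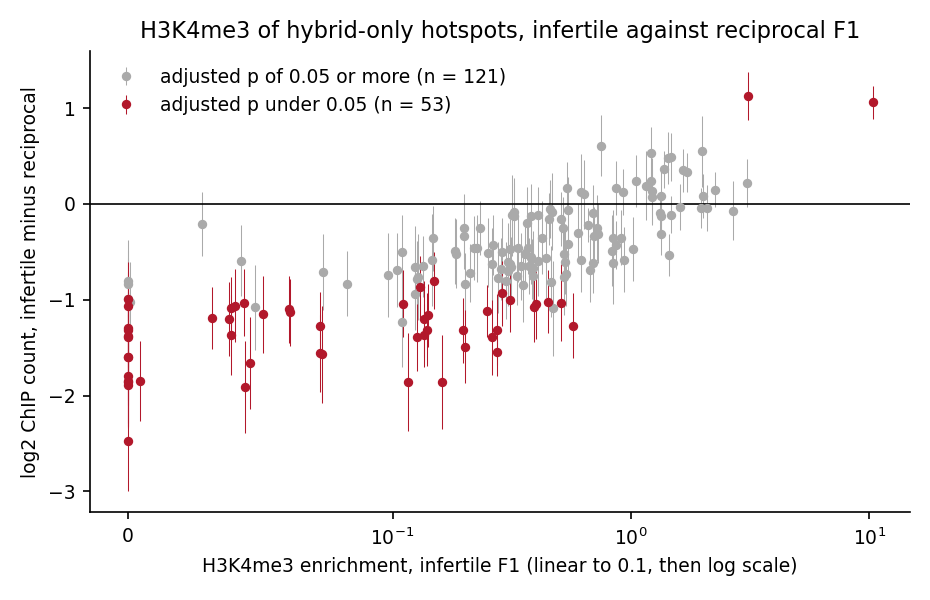
Difference in log2 ChIP count, infertile minus reciprocal F1 (vertical axis, edgeR estimate with 1 standard error), against H3K4me3 enrichment in the infertile F1 (horizontal axis, linear to 0.1 and logarithmic above) for 174 hybrid-only hotspots. Of the 53 called hotspots (red), 51 lie below 0, 49 of these at enrichments below 0.5, and 2 lie above 0, at enrichments of 10.3 and 3.10.

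The 2 hotspots that rose had infertile enrichments of 10.3 and 3.10. At Dnah11 the counts were 116 and 115 in the infertile and 49 and 44 in the reciprocal replicates. The log2 difference was 1.06 (SE 0.17, edgeR adjusted p = 3.21e-07). At the hotspot 2777 bp from Gm18584 (chr6:47435866) the counts were 50 and 67 against 25 and 20, a difference of 1.13 (SE 0.25, edgeR adjusted p = 0.000298). The inputs were 11 and 13 at Dnah11 and 17 and 16 at Gm18584 in the infertile and reciprocal tables. Both hotspots had a like heat in the 2 maps, 36.1 and 31.8 at Dnah11 and 15.5 and 13.0 at Gm18584.

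At the 5 falls with the lowest adjusted p, the replicates held from 1 to 51 fragments. Near Gm30808 (chr7:138682579) 22 and 19 fragments in the infertile stood against 50 and 51 in the reciprocal replicates (log2 difference -1.54, SE 0.26, edgeR adjusted p = 1.02e-06). Its DMC1 heat was 11.6 in infertile and 90.4 in reciprocal males, with a B6 share of 0.993 in the latter. In an intron of Ncam2, a neural adhesion molecule (chr16:81623319), 1 and 5 fragments stood against 14 and 15. In introns of Actr2, a subunit of the Arp2/3 complex (chr11:20105038), and of Lrriq1 (chr10:103123169) 4 and 9 stood against 22 and 18, and 4 and 7 against 16 and 19. Near Igsf3 (chr3:101517260) 22 and 25 stood against 36 and 50, with inputs of 42 and 76. The infertile enrichment was 0.274 or below at all 5.

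Against the rescue F1, only 5 of the hotspots could be matched, among them those of Bcl11b, Klhl1, Pccb and Pcsk5, and none was called. Over all 4592 bins 2.98% rose and 9.49% fell in the infertile F1. None of the 5 had an unadjusted p under 0.05 in edgeR or in DESeq2. At the 4 named, log2 differences, infertile minus rescue, ranged from -0.47 at Bcl11b (SE 0.38) to 0.12 at Pccb (SE 0.22). The counts were 17 and 16 in the infertile and 11 and 15 in the rescue replicates at Bcl11b, and 63 and 56 against 31 and 31 at Pccb. A difference was not detectable at this depth. Scaled to marked bins instead, which moved the median of all bins from 0.02 to 1.01, 3 of the 5 rose and 3905 of all bins rose, against 137.

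Most of the hotspots lay outside exons. Of the 576, 269 (46.7%) were intergenic, against 41.8% of PWD-type and 41.3% of B6-type hotspots, and 265 (46.0%) in introns, against 52.8% and 52.7%. The others were in coding exons (16), UTRs (13) and other exons (13). Within 1000 bp of a protein-coding transcript start lay 11 (1.91%), against 1.30% of PWD-type, 1.16% of B6-type and 79.4% of marked hotspots. The median GC content of the central 300 bp was 43.7%, against 43.0% in both parental types and 61.3% in marked hotspots. Another infertile hotspot lay within 2000 bp of 28 of them (4.86%), against 1.30% of PWD-type, 1.22% of B6-type and 1.79% of all hotspots. The other hotspots of neither map were also above the parental types, with 3.66% of marked and 2.54% of biased hotspots. In distance to starts and in GC content the 576 were nearer to hotspots of parental type than to the marked ones. The 576 and the parental types had all been chosen without the authors' mark, so this was largely set beforehand. The nearest hotspots to the limit of distance lay near Thrb and in Ccdc141, at 1004 and 1016 bp from a homozygous centre. Just outside were those near Gm12914 and Gm42654, at 999 and 994 bp.

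None of the 576 lay in or within 2000 bp of any of 32 genes of meiotic recombination, where 25 of all 23554 infertile hotspots lay. Of 3 further lists, olfactory and vomeronasal receptors had 2 (Olfr150 and Vmn2r108, both receptors of odour or pheromone), zinc-finger genes 2 (at Zfp354c and at Zfp955b with Zfp422-ps) and cadherins and protocadherins 2 (Pcdh7 and Cdh18, adhesion molecules). These are 0.347% of the 576 for each list, against 0.378, 0.947 and 0.416% of all hotspots. Of these 6, the hotspot in a UTR of Zfp955b had the highest enrichment, 2.10, at a B6 share of 0.548.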

How the data were processed

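All values came from deposited tables. The submitters' processing notes name BWA, SAMtools and bedtools, and the builds mm10 and mm9; the mm9 lists were not used here. The hotspot caller is not given in the sources used here. DMC1 heat was deposited by the authors as a relative signal, and B6 shares as fractions. In the deposited H3K4me3 tables, counts are numbers of fragments that overlap a 1 kb bin around a hotspot centre. The authors also gave each bin an enrichment ratio, and a p-value of a likelihood ratio test. Per the labels' protocols, F1 replicates had 40 to 50 M usable read pairs of 51 bp. Fragments in autosomal infertile bins numbered 5302534 and 5284422, with 1015014 in the input.

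The 576 hotspots, classes and gene lists were chosen with earlier results of these data known. Tools were edgeR 4.0.16 (TMM, filterByExpr) and DESeq2 1.42.0 in R 4.3.3, and SciPy 1.17.1, pandas 2.3.3, NumPy 2.4.6 and Matplotlib 3.10.9 in Python 3.11.15, with GENCODE M21 gene models. Wilson 95% intervals cover counting only. Motif and count scripts were tested on simulated data. Named hotspots are the 10 hottest, the 5 of highest enrichment, the 5 hottest without a call, the 5 hottest in no other map, those nearest each limit, list members and up to 5 of lowest adjusted p each way. None of the 576 bins had an input above 10 times the median. PWD spleen DNA was not used here, and 1 hotspot that the rule names is not reported here.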

Additional observations from a re-analysis of the deposited data

How the results depend on the processing

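With limits of 0.3 and 0.7 the set shrank from 576 to 90 hotspots and with a heat of at least 10 to 245. At adjusted p under 0.001 H3K4me3 was called in 39.8%, at a heat of at least 10 in 63.7% and at shares of 0.3 to 0.7 in 76.7%. The median enrichment was 0.387 at a heat of at least 10. For recurrence, a heat of at least 10 gave 58.8% (reciprocal map), 8.98% (Hum/PWD), 15.9% (B6 by CAST) and 0.816% (Hum/Hum). Shares of 0.3 to 0.7 gave 10.0% (reciprocal), 2.22% (Hum/PWD) and 5.56% (B6 by CAST). Keeping only the hottest 15000 hotspots of the other map gave 21% (reciprocal) and 3.12% (Hum/PWD). A distance of 2000 bp gave 3.65% (rescue), 8.16% (Hum/PWD) and 4.34% (B6/Hum), and 500 bp gave 0.694% (Hum/Hum). With at least 20 informative reads 76.3% of H3K4me3 shares were symmetric. At a heat of at least 10, chosen after seeing the data, 42.7% of reciprocal DMC1 shares were. At the limit passed by 1% of windows, 4.86% matched the PWD and 4.17% the B6 matrix. The cause of these shifts was not tested, beyond fewer hotspots or stricter limits.

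Between infertile and reciprocal F1, bins within 100 bp gave 1 rise and 32 falls. Leaving out 1 library gave 13 to 40 falls. DESeq2 gave an adjusted p to only 1 of the hotspots, which rose, so 0 fell; at unadjusted p under 0.05, 29 fell and 2 rose among 184. Scaling to marked bins moved the median of all bins from -0.02 to 0.07 and gave 2528 rises and 1122 falls, against 1755 and 1667, with 37 falls among the hotspots. Against the rescue F1 that scaling moved the median from 0.02 to 1.01, with 3905 rises and 157 falls against 137 and 436, and 3 of the 5 hotspots rose. Column numbers of the tables share no label with animals, and same-numbered replicates correlated at 0.01 and -0.03. With these numbers as a replicate block, 52 hotspots fell and 2 rose against the reciprocal, and 0 changed against the rescue F1. Of 101 alternative values, 70 moved by less than the interval or replicate spread of the reported value, or stayed within 1.5 times its count. Reversal of direction was not checked, because most of these results are shares or counts without a direction. The low counts per bin limit what could be detected, and DMC1 maps have no replicates.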
